A study of Mus musculus with 6 samples.

Results

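The tumour necrosis factor (TNF) superfamily was examined in CD4 T cells from mouse liver, as 11 ligand genes and 14 receptor genes, 25 of the 750 genes in the deposited table. The members were every gene named Tnf, Tnfsf or Tnfrsf together with a fixed set of family genes with other names, such as Lta, Cd40lg, Fasl, Cd27 and Fas. The family genes Ltbr, Eda and Ngfr were not analysed here. All 25 passed the filter on low values, a linear mean of 20 or more, and entered the test.

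RNA was measured by nCounter, an assay in which each target RNA binds a probe with a fluorescent code and the codes are tallied with no amplification step. The series holds 3 libraries titled FFC, which the labels describe as MASH, and 3 libraries titled Chow, which they describe as control. MASH usually stands for metabolic dysfunction-associated steatohepatitis, a fatty and inflamed liver, and FFC for a diet rich in fat, fructose and cholesterol, but the labels spell out neither. Every library came from cells labelled CD4 T cells of the liver, and the series calls the replicates biological. Not given in the sources used here were strain, sex, age, time on diet and how the cells were purified. The T cell markers Cd3d, Cd3e, Cd3g, Cd4 and Cd5 were counted in every library, with a summed linear level of 13520 to 15830 in FFC and 9642 to 11480 in Chow; Cd3g (limma adjusted p = 0.043) and Cd4 (adjusted p = 0.044) passed as higher in FFC. Of markers of cells not described further, 4 of 6 neutrophil markers and 1 of 2 dendritic cell markers passed as higher, against 17.4% of all tested genes. The endothelial marker Vwf did not pass, and the neutrophil marker S100a9 differed by -0.17 (log2). The background floor described below was exceeded in some library by 3 of the 6 neutrophil markers and by 0 of the 2 dendritic cell markers.

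Ligands of this family are made as membrane proteins that act as trimers, on the cell surface or after being cut free, and each binds 1 or a few receptors of the matching receptor family. Receptors without a death domain recruit TRAF adaptors and switch on NF-kappaB and survival signals, while death domain receptors such as Fas can recruit FADD and caspase-8 and kill the cell. CD4 T cells use the family in both directions: they display ligands such as CD40L and FasL to other cells, and they receive costimulation through receptors such as OX40 (Tnfrsf4), 4-1BB (Tnfrsf9), CD27 and CD30 (Tnfrsf8).

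A deposited value is the log2 of a count after multiplication by a factor, 1 per library. That factor was higher in every FFC library (1.11 to 1.26) than in any Chow library (0.707 to 1.10). Total recovered counts were 623212 to 693640 in FFC and 726836 to 900322 in Chow. The median of all 748 tested genes was 0.43 (log2) higher in FFC on the deposited scale. The difference of each member is therefore also given after centring, that is, after each library was set to the same median, which removed 0.39. Marker levels and calls are on the deposited scale unless stated. A background floor was taken from 10 genes whose known sites of expression are organs such as thyroid, pancreas and brain. These genes themselves stood 0.98 (log2, median) higher in FFC, and 6 of the 10 passed as higher. That floor, taken at its highest library and used for all, lay at 255.5 on the linear scale, and 5 members, Tnfsf13, Tnfsf13b, Tnfrsf11a, Tnfrsf13b and Tnfrsf17, were under it in all 6 libraries. The floors of the single libraries were 122.8 to 141.7 counts in Chow and 177.8 to 202.1 counts in FFC, so that the common floor was stricter for Chow. Some values under it, such as the 189 to 221 counts of Tnfrsf13b in Chow, exceeded the floors of their own libraries. Because the RNA came from whole preparations, fewer cells of a type and less RNA per cell cannot be told apart.

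The median ligand stood further above Chow in FFC than the median receptor, but few members passed the test. Of 11 ligands Cd40lg and Fasl rose, and of 14 receptors Tnfrsf9 and Tnfrsf17 rose; no member fell. In limma, with Benjamini-Hochberg adjustment over all tested genes at 0.05, 4 of the 25 members (16%) passed as higher in FFC, close to the 17.4% of all tested genes that did, and 0 passed as lower, against 0.936% of all genes; 10 members had an unadjusted p under 0.05. The median difference was 0.85 (log2) over the ligands and 0.32 over the receptors, against 0.43 over all tested genes. After centring, Fasl and Tnfrsf9 passed as higher and Tnfrsf13c as lower, so that 8% of members were called higher against 14.4% of all genes and 4% lower against 4.81%. The ligand median was then 0.46 and the receptor median -0.07, against 0.04 over all genes. With values set to the background floor, which 9 ligands and 11 receptors exceeded in some library, the medians lay closer together, at 0.43 and 0.32, against 0.19 over all genes above it.

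Quantile normalization, which gives every library the same distribution of values, called the same 3 members in the same directions, 8% of members higher and 4% lower, against 4.01% and 3.07% of all genes. The ligand median was 0.21 there and the receptor median -0.08, against -0.04 over all genes. Higher genes made up 94.9% of all calls as deposited, 75% after centring and 56.6% after quantile normalization, and for the members 100%, 66.7% and 66.7%. On the deposited scale the groups did not overlap for 10 members (40%), all with FFC above, where 34.4% of all genes had FFC above and 4.28% had FFC below. After centring, FFC lay above Chow for 6 members (24%) and below it for 2 (8%), against 28.3% and 16.3% of all genes.

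**Figure D1:**
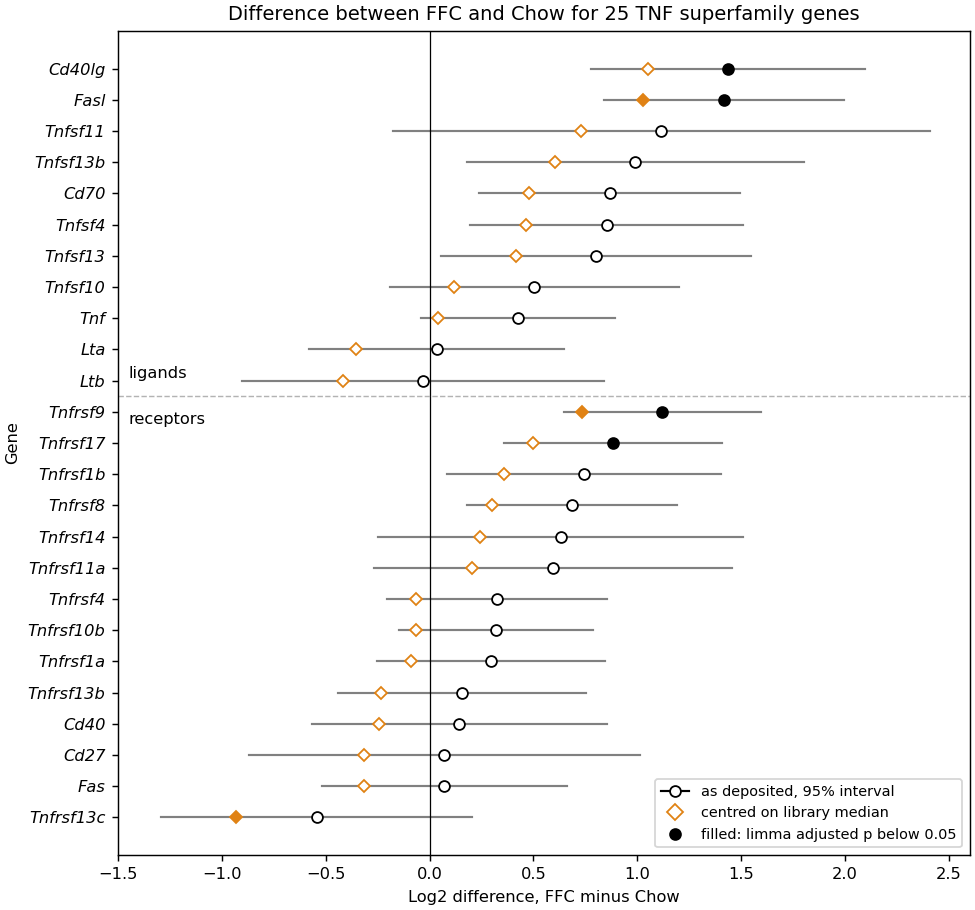
Log2 difference between FFC and Chow for 11 ligands (upper block) and 14 receptors (lower block); circles are deposited values with the 95% interval of limma, diamonds are values centred on the library median, and filled symbols passed an adjusted p of 0.05. Fasl and Tnfrsf9 are filled on both scales, Cd40lg and Tnfrsf17 only on the deposited one and Tnfrsf13c only on the centred one.

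The sequences upstream of the start sites of Fasl, Tnfrsf9 and Tnfrsf13c are shown because these are the members that passed on the centred and quantile scales, and that of Ltb because it carries an NF-kappaB motif while its level did not pass. Each run is the 250 bases before a RefSeq start on GRCm38.p6, written 5′ to 3′ on the strand of the gene, with motif matches in capitals. Both strands were searched for the NF-kappaB consensus, for GGAAA, the core bound by NFAT factors, and for TGANTCA, bound by AP-1; an NF-kappaB match can contain the GGAAA core. Fasl is at chr1:161788496-161788745 (minus strand), Tnfrsf9 at chr4:150919905-150920154 for its upstream start and chr4:150927749-150927998 for its downstream start (plus strand), Tnfrsf13c at chr15:82224381-82224630 (minus strand) and Ltb at chr17:35194257-35194506 (plus strand).
Fasl: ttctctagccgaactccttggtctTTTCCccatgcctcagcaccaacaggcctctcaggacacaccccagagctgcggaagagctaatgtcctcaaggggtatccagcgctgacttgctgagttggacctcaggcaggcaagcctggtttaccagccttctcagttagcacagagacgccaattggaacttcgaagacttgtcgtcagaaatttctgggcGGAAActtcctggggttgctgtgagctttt
Tnfrsf9 upstream start: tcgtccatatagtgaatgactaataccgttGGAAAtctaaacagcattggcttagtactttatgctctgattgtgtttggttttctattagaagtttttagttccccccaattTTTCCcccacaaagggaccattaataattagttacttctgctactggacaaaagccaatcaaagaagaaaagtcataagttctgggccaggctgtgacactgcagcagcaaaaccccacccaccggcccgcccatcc
Tnfrsf9 downstream start: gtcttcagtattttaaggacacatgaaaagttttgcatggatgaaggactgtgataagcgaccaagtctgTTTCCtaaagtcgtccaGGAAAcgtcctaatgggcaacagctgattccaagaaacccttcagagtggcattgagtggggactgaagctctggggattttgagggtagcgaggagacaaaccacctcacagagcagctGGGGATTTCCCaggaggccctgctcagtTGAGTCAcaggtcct
Tnfrsf13c: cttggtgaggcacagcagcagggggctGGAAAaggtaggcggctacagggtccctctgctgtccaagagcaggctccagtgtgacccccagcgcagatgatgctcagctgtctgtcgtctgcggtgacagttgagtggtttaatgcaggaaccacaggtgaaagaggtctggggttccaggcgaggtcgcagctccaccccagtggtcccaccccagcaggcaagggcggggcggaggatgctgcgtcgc
Ltb: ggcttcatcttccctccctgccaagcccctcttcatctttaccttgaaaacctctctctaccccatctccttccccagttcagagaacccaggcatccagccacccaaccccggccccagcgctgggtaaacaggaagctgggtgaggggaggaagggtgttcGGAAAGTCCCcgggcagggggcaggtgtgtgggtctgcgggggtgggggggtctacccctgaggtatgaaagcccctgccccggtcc

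The NF-kappaB consensus was found before the downstream start of Tnfrsf9, before Ltb and before Tnfrsf8, that is, in 3 of the 20 members with a sequence in the RefSeq table, and in 3.9% of all 32851 promoters of that table. TGANTCA was found in 5 of the 20, among them Tnfrsf9 at its downstream start and Tnfrsf8, and in 6.7% of all promoters. GGAAA was found in 15 of the 20 and in 55.6% of all promoters, and it was the only motif of the 3 in the windows of Fasl, Tnfrsf13c and the upstream start of Tnfrsf9. Tnfsf4, Cd70, Cd40lg, Cd40 and Tnfrsf10b were not searched. Members were counted by gene, with a match before any of their starts (22 promoters for the 20 members), whereas the shares of all promoters are by promoter. A match describes letters only.

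Among the ligands, Cd40lg, through which CD4 T cells help B cells and activate macrophages and dendritic cells, had deposited log2 values of 9.82, 9.98 and 10.64 in FFC 1 to 3, against 8.37, 9.01 and 8.76 in Chow 1 to 3. The groups did not overlap, also in recovered counts (770, 801 and 1437 in FFC; 429, 727 and 394 in Chow), where FFC 1 and Chow 2 lay close together. It rose by 1.44 ± 0.29 (log2, SE, n = 3 each; 2.71-fold; limma adjusted p = 0.030). After centring the difference was 1.05 (adjusted p = 0.067) and after quantile normalization 1.13 (adjusted p = 0.10), so that its call held on the deposited scale alone of these 3.

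Fasl, the death ligand of activated T cells and NK cells, had 8.87, 9.27 and 8.90 in FFC 1 to 3, against 7.68, 7.22 and 7.89 in Chow 1 to 3. Its counts were 396, 490 and 430 in FFC and 265, 211 and 216 in Chow, so that the groups were apart before any scaling. It rose by 1.42 ± 0.25 (log2; limma adjusted p = 0.023), by 1.03 after centring (adjusted p = 0.015) and by 0.94 after quantile normalization (adjusted p = 0.025). For its receptor Fas the values were 8.41, 8.65 and 8.45 in FFC and 8.14, 8.25 and 8.90 in Chow. The groups overlapped for Fas, with Chow 3 the highest library, and the difference was 0.07 (95% interval -0.52 to 0.66; limma adjusted p = 0.88) as deposited and -0.32 after centring. Fas counts were lower in every FFC library (289 to 317) than in any Chow library (365 to 434). Counts are not scaled, and total counts were also lower in every FFC library. After centring Fas overlapped between the groups.

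All 3 Chow values of Fasl lay under the common background floor and all 3 FFC values above it. Its counts of 211 to 265 in Chow nevertheless exceeded the floors of the Chow libraries themselves, 122.8 to 141.7 counts. With the 3 Chow values set to the common floor, and so to 1 value, the difference was 1.02 (log2). That setting cannot test the separation of the groups, because Fasl entered it through its FFC libraries alone.

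Markers of other cells known to make FasL stood higher in FFC as well. Of 3 NK cell markers measured, Ncr1 and Klrd1 passed as higher in FFC and Klra1 did not. The summed linear level of the 3 was 423.3 to 950.7 in FFC and 191 to 271 in Chow. None stood at 0, and of the 3 only Klrd1 exceeded the background floor in any library. Klrd1 differed by 1.85 (log2). Ncr1 and Klra1 differed by 1.08 and 0.89, near the median of 0.98 of the genes of other organs. FFC 3, the FFC library with the lowest summed level of NK markers, held 430 counts of Fasl, between FFC 1 and FFC 2. The CD8 T cell markers Cd8a and Cd8b1 summed to 521.3 to 794 in FFC and 389.8 to 458.7 in Chow, without overlap, but neither passed (limma adjusted p = 0.18 and 0.070). The parts of NK cells and CD8 T cells in the Fasl difference were not tested.

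**Figure D2:**
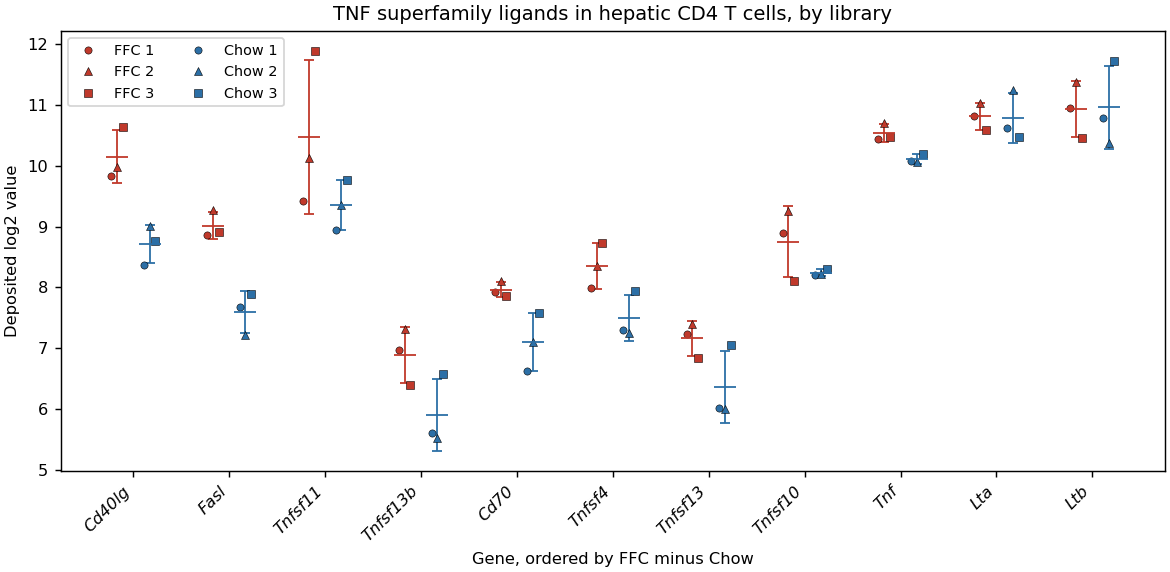
Deposited log2 values of the 11 ligands in each library, FFC left of Chow for each gene; symbols mark the replicate number, horizontal marks the mean and bars the SD of 3 libraries. Cd40lg, Fasl, Cd70, Tnfsf4 and Tnf have no overlap between groups on this scale, whereas the spread of Tnfsf11 in FFC comes from FFC 3, at 11.88.

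Tnf and the lymphotoxins had mean counts above 1000 and did not pass. Tnf, the inflammatory cytokine that names the family, had 10.44, 10.71 and 10.47 in FFC, against 10.08, 10.06 and 10.20 in Chow. The groups did not overlap on the deposited scale, but counts were 1179 to 1323 in FFC and 1068 to 1506 in Chow, which overlap. The difference was 0.43 (95% interval -0.04 to 0.89; limma adjusted p = 0.17), the same as the median of all genes, and 0.04 after centring.

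Lta, which forms a secreted trimer that binds both TNF receptors, had 10.82, 11.03 and 10.58 in FFC, against 10.62, 11.25 and 10.47 in Chow. Ltb, which anchors lymphotoxin alpha to the membrane and signals to stromal cells of lymphoid tissue, had 10.95, 11.37 and 10.46 in FFC, against 10.79, 10.38 and 11.71 in Chow. Both overlapped between the groups, with the extremes among the Chow libraries, Lta highest in Chow 2 and Ltb highest in Chow 3. Their differences were 0.03 (95% interval -0.58 to 0.65) and -0.03 (95% interval -0.90 to 0.84), and -0.35 and -0.42 after centring. In the RefSeq annotation no other protein-coding gene lies between Ltb and Tnf or between Tnf and Lta, and over all 6 libraries these 3 neighbours were highest in different ones. Within FFC all 3 were highest in FFC 2 on the deposited scale, as were 18 of the 25 members. Within Chow both Tnf and Ltb were highest in Chow 3, as were 18 of the 25. After centring, Ltb kept these positions, but Tnf and Lta were highest in FFC 3 within FFC. Tnf was then the lowest in Chow 3 within Chow.

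Ligands of costimulatory receptors stood higher in FFC without passing. Cd70, the ligand of CD27, had 7.93, 8.10 and 7.86 in FFC, against 6.62, 7.10 and 7.57 in Chow, with no overlap on the deposited scale, on the centred scale or in counts (207 to 217 in FFC, 127 to 194 in Chow). The difference was 0.87 (limma adjusted p = 0.057), 0.48 after centring and 0.22 after quantile normalization. Only FFC 2 lay above the background floor for Cd70, and with values set to the floor the difference was 0.03. Tnfsf4 (OX40L) had 7.98, 8.34 and 8.73 in FFC, against 7.30, 7.26 and 7.94 in Chow. It was highest in FFC 3, FFC 1 and Chow 3 nearly met, and the difference was 0.85 (limma adjusted p = 0.068), or 0.46 after centring and 0.23 after quantile normalization. Tnfsf4 exceeded the floor only in FFC 2 and FFC 3, its counts overlapped (215 in FFC 1, 223 in Chow 3), and with values set to the floor the difference was 0.36. Tnfsf4 and Fasl lie near each other on chromosome 1, with 1 protein-coding gene between them in the annotation.

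Tnfsf11 (RANKL), the osteoclast and lymph node organising cytokine that activated T cells also make, had 9.42, 10.12 and 11.88 in FFC, against 8.94, 9.36 and 9.77 in Chow. FFC 3 held 3388 counts, while FFC 1 and FFC 2 held 582 and 880 and the Chow libraries 637, 928 and 794. The difference of 1.12 (95% interval -0.18 to 2.41, limma adjusted p = 0.19) was 0.41 without FFC 3 and 0.73 after centring. On the centred scale FFC 1 and FFC 2 stood at 9.20 and 9.70, next to the Chow values of 9.29 to 9.69. Its receptor Tnfrsf11a (RANK), known from dendritic cells and osteoclast precursors, lay under the floor in all libraries. Tnfrsf11a differed by 0.59 (adjusted p = 0.29), or 0.21 after centring.

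Tnfsf10 (TRAIL), a death ligand, had 8.89, 9.25 and 8.10 in FFC, against 8.20, 8.23 and 8.31 in Chow. FFC 3 was below every Chow library, and the difference was 0.50 (limma adjusted p = 0.26), or 0.83 without FFC 3 (adjusted p = 0.032). After centring it was 0.12, or 0.31 without FFC 3 (adjusted p = 0.17). Its receptor Tnfrsf10b differed by 0.32 (adjusted p = 0.29), with FFC above Chow in every library (8.50 to 8.79 in FFC, 8.31 to 8.41 in Chow) on the deposited scale but not after centring, where the difference was -0.07.

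Among the receptors, Tnfrsf9 (4-1BB), a costimulatory receptor that appears on T cells after activation, had 9.71, 9.69 and 9.44 in FFC, against 8.41, 8.44 and 8.63 in Chow. The gap between the groups was wider than the spread inside them (SD 0.15 in FFC and 0.12 in Chow), and counts were 709, 654 and 624 in FFC and 440, 490 and 359 in Chow. It rose by 1.12 ± 0.21 (2.17-fold; limma adjusted p = 0.024), by 0.73 after centring (adjusted p = 0.020) and by 0.80 after quantile normalization (adjusted p = 0.025).

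The other costimulatory receptors did not pass. Tnfrsf8 (CD30), an activation receptor, stood at 8.73 to 8.93 in FFC and 7.97 to 8.42 in Chow, without overlap, and differed by 0.69 (limma adjusted p = 0.058), or 0.30 after centring. Tnfrsf4 (OX40), which sustains effector and regulatory CD4 T cells, had the highest counts of the family, with 12.18, 12.09 and 12.40 in FFC, against 12.04, 12.08 and 11.58 in Chow. FFC 2 and Chow 2 were nearly equal, Chow 3 was the lowest, and the difference was 0.32 (95% interval -0.21 to 0.85; adjusted p = 0.34), or -0.06 after centring.

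Cd27, which naive and resting memory T cells carry, had 9.22, 9.43 and 7.82 in FFC, against 9.05, 8.70 and 8.51 in Chow. FFC 3 was the lowest of all 6 libraries and FFC 2 the highest, so that the groups overlapped, with a difference of 0.07 (95% interval -0.87 to 1.01; limma adjusted p = 0.92) or -0.32 after centring. Tnfrsf14 (HVEM), which binds LIGHT, lymphotoxin alpha and the inhibitory receptor BTLA, showed the same order within FFC, at 9.33, 9.74 and 8.14 against 8.31 to 8.52 in Chow. It differed by 0.63 (adjusted p = 0.27), or by 1.09 without FFC 3 (adjusted p = 0.019). After centring the difference was 0.24, or 0.58 without FFC 3 (adjusted p = 0.0496).

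Both TNF receptors were counted. Tnfrsf1b (TNFR2), the form prominent on regulatory and activated T cells, had 10.64, 10.90 and 10.16 in FFC, against 9.68, 9.53 and 10.26 in Chow. Only Chow 3 and FFC 3 crossed, and the difference was 0.74 (limma adjusted p = 0.098), or 0.36 after centring, where the groups did not overlap. On the deposited scale it passed without Chow 3 (0.96, adjusted p = 0.032) and without FFC 3 (0.95, adjusted p = 0.041). After centring it passed neither without Chow 3 (0.43, adjusted p = 0.094) nor without FFC 3 (0.44, adjusted p = 0.061). Tnfrsf1a (TNFR1), the widely expressed death domain receptor, had 8.78, 9.12 and 8.49 in FFC, against 8.57, 8.31 and 8.62 in Chow. The groups overlapped, with a difference of 0.30 (adjusted p = 0.40) or -0.09 after centring.

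**Figure D3:**
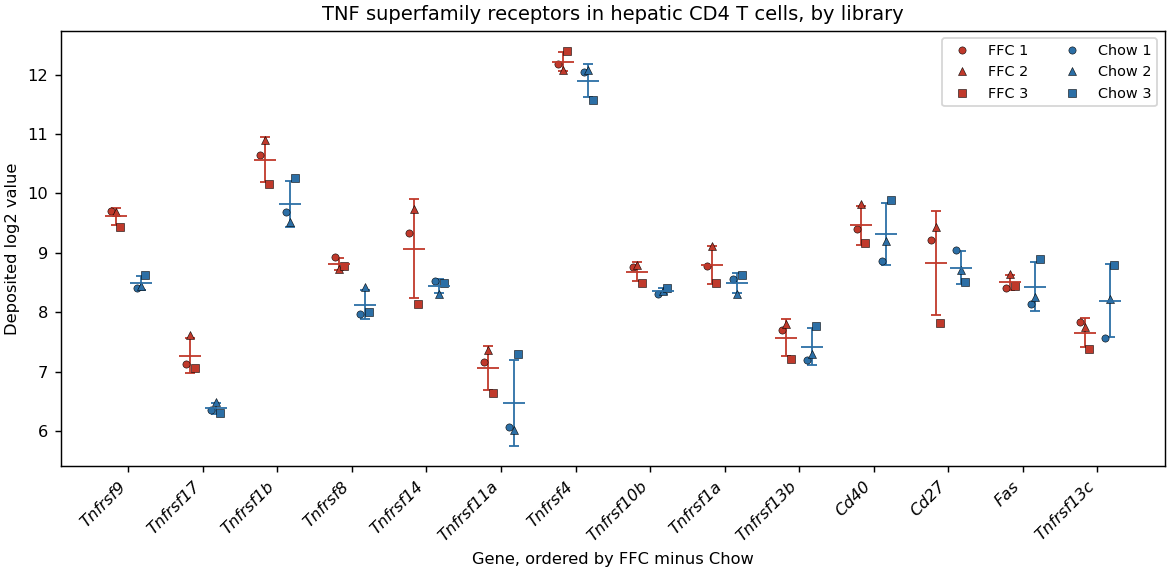
Deposited log2 values of the 14 receptors in each library, FFC left of Chow for each gene; symbols mark the replicate number, horizontal marks the mean and bars the SD of 3 libraries. Tnfrsf9 has the widest gap between groups, while Tnfrsf14 and Cd27 are lowest in FFC 3 and Tnfrsf13c is highest in Chow 3.

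Of the receptors known chiefly from B cells and plasma cells, Tnfrsf17 alone passed as deposited and Tnfrsf13c alone after centring. Tnfrsf13c (BAFF receptor), needed for the survival of mature B cells, had 7.84, 7.75 and 7.37 in FFC, against 7.57, 8.22 and 8.80 in Chow. On this scale Chow 1 lay inside the FFC range and the difference was -0.54 (95% interval -1.29 to 0.21; limma adjusted p = 0.26). In counts every FFC library was lower (194, 170 and 149 in FFC; 245, 422 and 405 in Chow), and after centring it fell by 0.93 (adjusted p = 0.034) and after quantile normalization by 1.13 (adjusted p = 0.026). Only Chow 2 and Chow 3 lay above the background floor, and with values set to the floor the difference was -0.34 (adjusted p = 0.42). Cd40, the receptor of CD40L on B cells, dendritic cells and macrophages, had 9.39, 9.82 and 9.17 in FFC, against 8.87, 9.20 and 9.88 in Chow. It overlapped, was highest in Chow 3 and differed by 0.14 (adjusted p = 0.77), or -0.24 after centring.

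The B cell markers Ms4a1, Cd79a, Pax5 and Blnk had a summed linear level of 1221, 1182 and 885.5 in FFC 1 to 3 and of 917.5, 1391 and 2036 in Chow 1 to 3. Chow 3 was thus the highest library for this sum as for Tnfrsf13c and Cd40, and Chow 1 the lowest Chow library for all of them. On the deposited scale Chow 3 was also the highest Chow library for 18 of the 25 members, and Chow 1 the lowest for 11. Within FFC the sum and Tnfrsf13c were highest in FFC 1, whereas Cd40 was highest in FFC 2. All of them were lowest in FFC 3, as were 17 of the 25 members. Of these 4 markers 0 passed in limma as higher or lower on the deposited scale, none was at 0, and Ms4a1 and Blnk exceeded the background floor in some library. In counts and after centring, Ms4a1, Pax5 and Blnk had FFC below Chow without overlap, as Tnfrsf13c did, while Cd79a overlapped. After centring, 16.3% of all genes had FFC below Chow in this way. The part of B cells in the Tnfrsf13c and Cd40 values was not tested.

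Tnfrsf17 (BCMA), a plasma cell receptor, had 7.13, 7.61 and 7.06 in FFC, against 6.36, 6.49 and 6.31 in Chow, and rose by 0.88 ± 0.23 (log2; limma adjusted p = 0.039). Its counts overlapped (119, 155 and 120 in FFC; 106, 127 and 72 in Chow) and lay under the background floor, and the difference was less than the 0.98 of the genes of other organs. After centring it was 0.50 (adjusted p = 0.10) and after quantile normalization 0.09 (adjusted p = 0.81). The plasma cell markers Sdc1 and Xbp1 went in opposite directions, with differences of 0.67 and -0.43, and neither passed (adjusted p = 0.17 and 0.16). They summed to 2062 to 2396 in FFC and 2457 to 3118 in Chow. Most of that sum was Xbp1, with a mean of 2285.5 counts against 272.83 for Sdc1. Their part in the Tnfrsf17 value was not tested. Tnfrsf13b (TACI), a regulatory receptor of B cells, differed by 0.15 (adjusted p = 0.71), with FFC below Chow in every library after centring (-0.23, adjusted p = 0.23).

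The ligands of these receptors, Tnfsf13b (BAFF) and Tnfsf13 (APRIL), known mainly from myeloid cells, differed by 0.99 (limma adjusted p = 0.079) and 0.80 (adjusted p = 0.11), at 76 to 134 counts in FFC and 63 to 120 in Chow, under the floor. The differences were 0.60 and 0.41 after centring, and 0.21 and 0.02 after quantile normalization. On the deposited scale both ligands were highest in Chow 3 among the Chow libraries and lowest in FFC 3 among the FFC libraries, as were 18 and 17 of the 25 members. The sum of the macrophage and monocyte markers C1qa, C1qb, Cd68, Fcgr1 and Cd14 had the same order within each group. On the linear scale it was 3465, 4577 and 1908 in FFC 1 to 3 and 866.4, 824.1 and 1779 in Chow 1 to 3. Single markers did not all share this order. Chow 2 exceeded Chow 1 for C1qa, C1qb and Fcgr1, and Cd14 was highest in FFC 3 within FFC. Of these 5 markers 3 passed as higher in FFC and none was at 0; their part in the Tnfsf13b and Tnfsf13 values was not tested.

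The ratio of a ligand to its receptor within a library does not depend on the scale factor of that library. Of 16 pairs of a measured ligand and a measured receptor, 5 had FFC above Chow without overlap, against 20.7% of all ordered pairs of tested genes, and the other 11 pairs overlapped. The 16 share genes and are not independent of each other. For Fasl to Fas the log2 ratio was 0.45, 0.63 and 0.46 in FFC and -0.46, -1.03 and -1.01 in Chow, a difference of 1.35 (1.25 to 1.53 with each library left out). For Cd40lg to Cd40 it was 0.43, 0.17 and 1.47 in FFC and -0.49, -0.20 and -1.12 in Chow, a difference of 1.29, with FFC 2 and Chow 2 nearest. The other 3 pairs without overlap, Tnfsf13b to Tnfrsf13c and Tnfsf13b and Tnfsf13 to Tnfrsf13b, are ratios of values under the background floor, on both sides in FFC for the first and in all 6 libraries for the others. Fasl itself was under the common floor in Chow, though above the floors of the Chow libraries themselves. Each of the 5 had an exact two-sided permutation p of 0.1 (n = 3 each), the smallest that this design allows, and 0.32 after adjustment over the 16 pairs.

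The pairs of Tnf did not separate the groups. The difference was 0.13 for Tnf to Tnfrsf1a (exact permutation p = 0.5, n = 3 each) and -0.32 for Tnf to Tnfrsf1b (exact permutation p = 0.2). For Tnfsf4 to Tnfrsf4 it was 0.53 and for Cd70 to Cd27 0.80, both with an exact permutation p of 0.4. Tnfsf11 to Tnfrsf11a stood at 5.23 in FFC 3 and at 2.27 to 3.33 in the other 5 libraries.

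**Figure D4:**
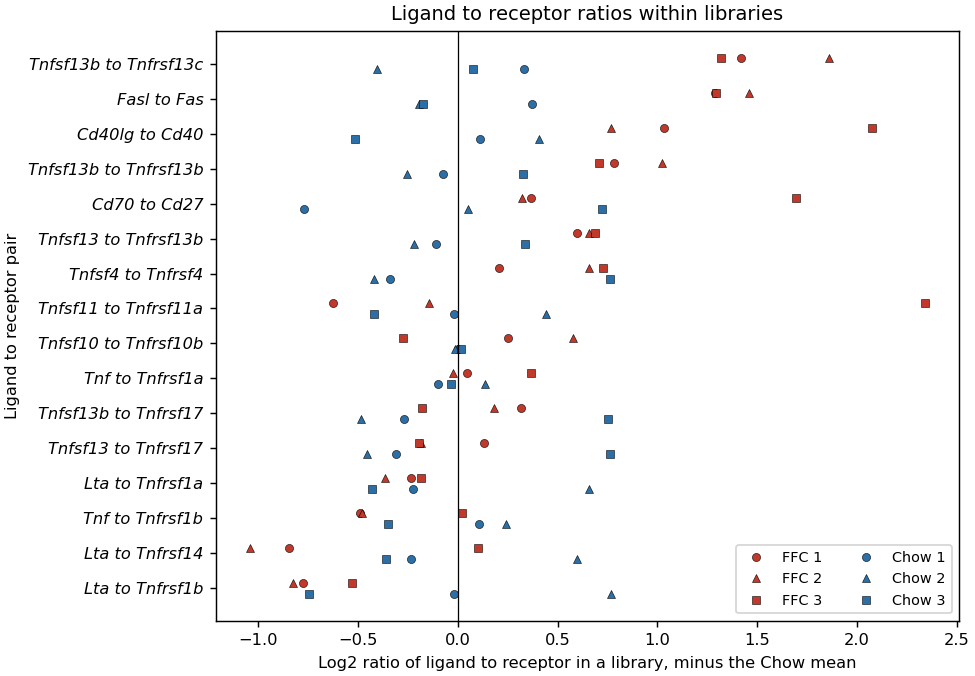
Log2 ratio of ligand to receptor in each library, minus the mean of the 3 Chow libraries, for 16 pairs; colours mark the group and symbols the replicate number. The 3 FFC libraries lie right of all Chow libraries for 5 pairs, among them Fasl to Fas and Cd40lg to Cd40.

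After centring, FFC 3 was the highest FFC library for 12 members, among them Cd40lg, Tnfsf11, Tnfsf4, Tnfrsf4 and Tnfrsf9, and the lowest for 10, among them Cd27, Tnfrsf14, Tnfsf10, Tnfrsf1b and Tnfsf13b. The widest spread inside FFC was that of Tnfsf11 (2.74), followed by Cd40lg (1.14), Cd27 (1.13) and Tnfrsf14 (1.12). Chow 3 was the highest Chow library for 11 members, among them Cd40, Fas, Ltb and Tnfrsf13c, and the lowest for 12, among them Tnfrsf4, Tnfrsf8, Tnfrsf9 and Cd40lg.

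The number of members that passed changed with the libraries used, as it did for all genes. Without FFC 3, 8 of 25 members passed as higher, beside 229 of 748 genes, and without Chow 3, 10 members did, beside 284 genes; 0 members passed without FFC 1, FFC 2, Chow 1 or Chow 2, where 1, 1, 7 and 2 of all genes passed. With both Chow 3 and FFC 3 left out 18 members and 475 of all genes passed. Cd40lg, Fasl, Tnfrsf9 and Tnfrsf17 each passed in 2 of the 6 fits that left out 1 library, those without Chow 3 and without FFC 3. In the other 4 the adjusted p of limma was 0.075 to 0.11 for Cd40lg, 0.068 to 0.087 for Fasl, 0.092 to 0.12 for Tnfrsf9 and 0.12 to 0.16 for Tnfrsf17. On the centred scale Fasl passed in 4 of the 6, failing without Chow 2 (adjusted p = 0.063) and without FFC 2 (adjusted p = 0.065). Tnfrsf9 passed there in 2 of the 6 and Tnfrsf13c in 2, those without Chow 1 and without FFC 3. The direction of Fasl, Tnfrsf9, Cd40lg and Tnfrsf13c was the same in all 6.

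**Figure D5:**
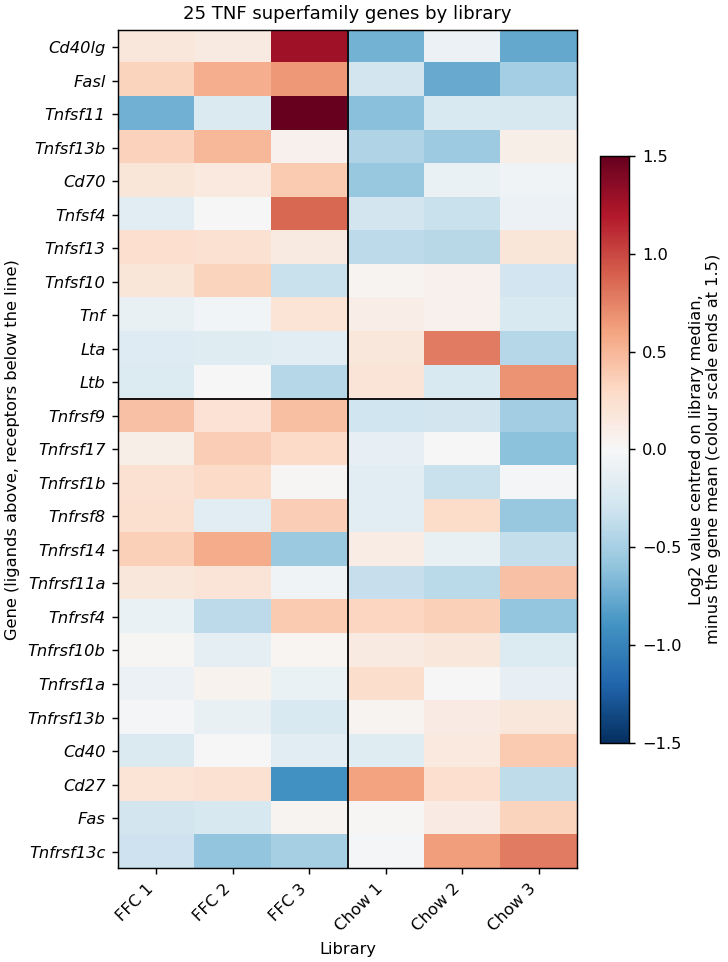
Log2 values centred on the library median, minus the mean of each gene over the 6 libraries, for 11 ligands and 14 receptors (rows, in the order of their differences) in 6 libraries (columns, FFC left of Chow). Tnfsf11 is high in FFC 3 alone and Cd27 low there, while Fasl and Tnfrsf9 are above their mean in all FFC libraries and below it in all Chow libraries.

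Of other genes that carry signals from these receptors, 46 had been listed as adaptors, kinases, ubiquitin enzymes, NF-kappaB subunits and death genes, and 36 were in the table. None of the 36 passed in limma in either direction on the deposited scale, against 17.4% of all tested genes higher and 0.936% lower, and 1 had an unadjusted p under 0.05, nor did any pass after centring or quantile normalization; under cyclic loess Tnfaip3 passed as higher and the kinase genes Ripk1 and Ripk3 as lower, both with an adjusted p of 0.049. Of the 36, 13 had a mean above 1000 counts and 21 one of 200 to 1000, bands in which 8.67% and 12.1% of all genes passed as higher. Their median difference was 0.24 (log2) as deposited, against 0.43 over all tested genes, and -0.15 after centring. Tnfaip3, which encodes A20, a brake on NF-kappaB that NF-kappaB itself induces, came nearest. It had 11.19, 11.46 and 11.07 in FFC, against 10.07, 10.15 and 10.90 in Chow, without overlap, and differed by 0.87 (adjusted p = 0.057), or 0.48 after centring; it passed without Chow 3 (adjusted p = 0.015), without FFC 3 (adjusted p = 0.049) and under cyclic loess (0.71, adjusted p = 0.044).

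The other named signalling genes did not pass. Traf1, an adaptor of TNFR2 and 4-1BB that activated lymphocytes induce, differed by 0.41 (limma adjusted p = 0.33) and Traf2, an adaptor shared by most receptors of the family, by 0.24 (adjusted p = 0.50). Nfkbia, the NF-kappaB inhibitor, differed by 0.24 (adjusted p = 0.53). In the death arm, the caspase gene Casp8 differed by 0.25 (adjusted p = 0.47) and its inhibitor Cflar by 0.41 (adjusted p = 0.23). After centring these 5 lay between -0.15 and 0.02.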

How the data were processed

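Per the labels' protocols, total RNA of hepatic CD4 T cells was prepared with a Direct-zol MicroPrep kit; the nCounter assay is named by the series. The authors deposited log2 values of 750 genes in 6 libraries, with a normalization not given in the sources used. Taken out of log2, 100% of the values of a library were whole multiples, within 0.02, of a single step, which gave the recovered counts and scale factors. RefSeq's GRCm38.p6 annotation, the source of the promoter sequences, lists all 25 members under the same symbols.

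Genes with a mean linear value of at least 20 were tested (748) on the deposited log2 values with limma 3.58.1 in R 4.3.3 (lmFit, eBayes, no covariate, two-sided, Benjamini-Hochberg). The background floor was the mean plus 2 SD of 10 genes of other organs, taken at its highest library, 255.5 on the linear scale; 1 such floor was used for all libraries. Per-library values are given for members that passed, whose call changed after centring or quantile normalization, or that were listed as central; of those, Tnfsf14 and Tnfrsf18 were not analysed here. Values of Tnfsf4, Tnfrsf8 and Tnfrsf14 were added after they were seen. Members and gene lists were chosen with earlier results of these data known. Alternatives covered the pseudocount (10, 0.1), filter (none, 50), scaling (median centring, quantile, cyclic loess, voom with TMM on recovered counts), replicate block, each library left out, trend and robust eBayes, threshold (0.1) and floor; leaving out Chow 3 and FFC 3 together, and centring with each library left out, were added after seeing the data. Limma was tested on simulated data. A listed marker gene that is not reported here was left out of its list.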

Additional observations from a re-analysis of the deposited data

How the results depend on the processing

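Having 3 libraries a group limits precision, and p-values measure the spread between these libraries. The 4 members called as deposited were also 4 with either pseudocount, with either filter and with trend and robust eBayes. They were 2 with the background floor (Tnfrsf9, and Fasl, which passed the floor through its FFC libraries alone), 9 at a threshold of 0.1, 18 without Chow 3 and FFC 3, and 0 to 10 with each library left out. Of all tested genes, 137 were called as deposited, 53 after quantile normalization, 65 under cyclic loess, 9 with the floor, 246 at a threshold of 0.1, 475 without Chow 3 and FFC 3, and 1 to 290 with each library left out. Of the 36 signalling genes, 0 were called as deposited, 3 under cyclic loess, 1 under voom, 1 at a threshold of 0.1, 15 without Chow 3 and FFC 3, and 0 to 3 with each library left out.

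With the replicate number as a block 0 members, 0 signalling genes and 1 gene in all were called. The deviations of same-numbered libraries from their group means correlated at 0.02, -0.22 and -0.04 over genes, and not every library correlated best with its own number, so that the numbers were not taken to pair the libraries.

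Some differences changed sign, none of them a call as deposited. After centring, Lta stood at -0.35, Tnfrsf1a at -0.091, Tnfrsf4 at -0.064, Cd27 at -0.32, Cd40 at -0.24, Fas at -0.32, Tnfrsf10b at -0.067, Tnfrsf13b at -0.23, Casp8 at -0.14, Nfkbia at -0.14 and Traf2 at -0.15. Under voom they stood at -0.36, -0.11, -0.070, -0.34, -0.26, -0.33, -0.080, -0.25, -0.16, -0.15 and -0.16 in the same order. Under quantile normalization Lta was at -0.18, Tnfrsf1a at -0.058, Cd27 at -0.30, Cd40 at -0.15, Fas at -0.37, Tnfrsf10b at -0.093, Tnfrsf11a at -0.19 and Tnfrsf13b at -0.53, and under cyclic loess at -0.13, -0.038, -0.23, -0.064, -0.32, -0.049, -0.20 and -0.52. Without Chow 3 and FFC 3, Lta was at -0.0056 and Ltb at 0.58. With 1 library left out, Lta ranged from -0.12 to 0.27, Ltb from -0.32 to 0.34, Cd27 from -0.23 to 0.57, Cd40 from -0.083 to 0.43 and Fas from -0.076 to 0.30. The cause of these changes was not tested.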

Other observations

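Calls were more frequent among genes with few counts. Of the 144 genes with a mean of 100 to 200 counts, 31.9% passed as higher in FFC as deposited, and 1 of the 5 members of that band, Tnfrsf17, did. Of the 347 genes with 200 to 1000 counts, 12.1% passed, and 3 of 13 members did, Cd40lg, Fasl and Tnfrsf9. Of the 173 genes above 1000 counts, 8.67% passed, and of their 6 members, Tnf, Lta, Ltb, Tnfsf11, Tnfrsf1b and Tnfrsf4, none did.

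Tnfrsf1b and Tnfrsf8 are neighbours on mouse chromosome 4, with no other protein-coding gene between them in the RefSeq annotation. Their differences were 0.74 and 0.69 (log2) as deposited and 0.36 and 0.30 after centring. Cd27 and Tnfrsf1a on chromosome 6, with 3 protein-coding genes between them, differed by 0.07 and 0.30 as deposited and by -0.32 and -0.09 after centring.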
